A study of Saccharomyces cerevisiae with 18 samples.

Results

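The question asked of each gene was whether the difference in mRNA level between W303-Δsky1 and W303 depended on cisplatin. The strain by cisplatin interaction of a gene is the W303-Δsky1 minus W303 difference in cisplatin-treated cells, less the same difference in untreated cells, both on the log2 scale. It was computed for 5698 genes of Saccharomyces cerevisiae, 1 probe set each, out of the 10715 probe sets of the array, which also carries probe sets for the fission yeast Schizosaccharomyces pombe. The 4 groups had 3 arrays each: W303-Δsky1 treated for 4 h with 600 µM cisplatin dissolved in DMSO, W303 treated in the same way, W303-Δsky1 given DMSO alone, and W303 given DMSO alone. W303 is a haploid laboratory strain of genotype MATa that carries the alleles ura3-52, ade2-1, trp1-100 and can1-100 and, in leu2, the mutations 3 and 112, besides a his3 allele named in the study's methods, and W303-Δsky1 is its derivative without SKY1, so that all groups share these alleles and 1 deletion line stands for the loss of the gene. Each culture, grown in synthetic complete medium at 30 °C, was divided into a treated and an untreated aliquot.

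Sky1 is the budding yeast member of the SR protein kinases, which phosphorylate proteins with arginine- and serine-rich stretches such as the shuttling mRNA-binding protein Npl3. Cisplatin is a platinum drug that forms adducts with DNA and binds sulfur in cysteine, methionine and glutathione. Yeast takes up sulfate, reduces it to sulfide and joins the sulfide to a carbon chain to make homocysteine, from which methionine, S-adenosylmethionine (AdoMet), cysteine and glutathione follow. Most genes of this route are transcribed by Met4 with Cbf1 and the zinc finger proteins Met31 and Met32, at a rate that depends on the supply of organic sulfur.

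SKY1 mRNA gave 1.43, 1.17 and 1.03 in treated W303-Δsky1 and 7.98, 8.09 and 8.07 in treated W303, and 0.54, 1.33 and 0.56 in untreated W303-Δsky1 and 8.12, 7.98 and 8.17 in untreated W303, in RMA log2 signal. The deletion strain was at or near background, taken as the level under which 95% of the S. pombe signals of an array lay (1.24 to 1.34), and SKY1 was left out of all counts below, which run over 5697 genes. Arrays of 1 group correlated with r between 0.992 and 0.998. The W303 untreated arrays spread most, with a median SD per gene of 0.152 among genes whose interaction was called higher and 0.114 among those called lower, against 0.066 and 0.069 in treated W303. Genes of mating type a were expressed on all arrays, from a lowest value of 3.87 for ASG7 upwards, while MF(ALPHA)1 stayed at 1.28 to 1.86. SAG1, an alpha-specific gene, lay between 6.70 and 7.26 on every array. The median standard error (SE) of an interaction was 0.106, so that a 95% interval reached about 0.231 to each side.

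An interaction was called where limma gave an adjusted p (Benjamini-Hochberg) under 0.05 with a raw p under 0.01, and where its size was 1.6-fold or more, which is 0.678 in log2 units. By this rule 287 genes (5.04%) had an interaction, 130 higher (2.28%) and 157 lower (2.76%). These shares are the background for every count of called list members below. A higher interaction means here that the level in W303-Δsky1 relative to W303 was higher with cisplatin than without it, and a lower one the opposite. At least 2-fold interactions were found for 31 genes in the higher and 35 in the lower direction. In 286 of the 287 genes the interaction had 1 sign in all 3 sets of arrays with the same replicate number. The calls were made on these same arrays, so the count is no independent test of them. Of the 4346 genes with neither a called strain difference nor a called interaction, 2524 had 1 sign as well. Without a limit on fold, 1572 genes (27.6%) had an adjusted p under 0.05, the background for counts by adjusted p alone. Close to the limit, 111 called genes lay within 0.1 above it and 148 genes that passed both p thresholds lay within 0.1 below it. The 4946 S. pombe probe sets, fitted apart in the same way, gave 0 calls by limma, 245 unadjusted p under 0.05 and 0 adjusted p under 0.05. Their signals make up the background, so they do not show how often expressed genes would be called falsely.

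The strain differences themselves were larger with cisplatin. In treated cells 500 genes were called higher (8.78%) and 634 lower (11.1%) in W303-Δsky1, 19.9% together, and in untreated cells 283 were higher (4.97%) and 301 lower (5.28%), 10.3% together. The strains did not overlap in 73.9% of all genes with cisplatin and in 62.0% without it, which is the background for each gene below whose arrays are said not to overlap. The SD of the strain differences across genes was 0.561 with cisplatin and 0.427 without, and their median size 0.334 and 0.247. The differences with and without cisplatin, which share no array, followed each other across the 5697 genes (Pearson's r = 0.802, Spearman's rho = 0.788), and 80.6% of genes had both of 1 sign. Genes are not independent replicates and no test was made of this relation.

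Each gene was then placed by which of its strain differences was called. For 169 genes the difference appeared with cisplatin, being called only in treated cells (72 higher and 97 lower in W303-Δsky1). It grew for 33 genes, called in both conditions with 1 sign and larger with cisplatin (18 higher, 15 lower). The split between appearing and growing depends on the fold limit, since an untreated difference just under it counts as not called. RRP9, for instance, appeared with -0.65 in untreated cells (adjusted p = 5.33e-07 by limma). Without a fold limit 546 genes appeared and 602 grew. For 20 genes the strain difference disappeared, called only in untreated cells, and for 2 genes, MHT1 and FIT2, it was called in both with opposite signs. In a further 63 genes the interaction was called while neither strain difference was. The class of shrinking differences held 0 genes. A gene could shrink only if its untreated difference was called and reached about 1.356, which 46 genes did, while 163 genes had a called treated difference of that size. For 301 genes the strain difference stayed constant, meaning that both differences were called with 1 sign and the 95% interval of the interaction lay within 1.6-fold of 0. This rule sets no lower bound on the adjusted p, so a constant gene may still have an interaction smaller than the fold limit. Another 763 genes had at least 1 called strain difference but an interaction that was neither called nor bounded in this way, and 4346 had neither a called strain difference nor a called interaction. The plot of both strain differences shows these classes as bands above, below and along the diagonal.

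**Figure D1:**
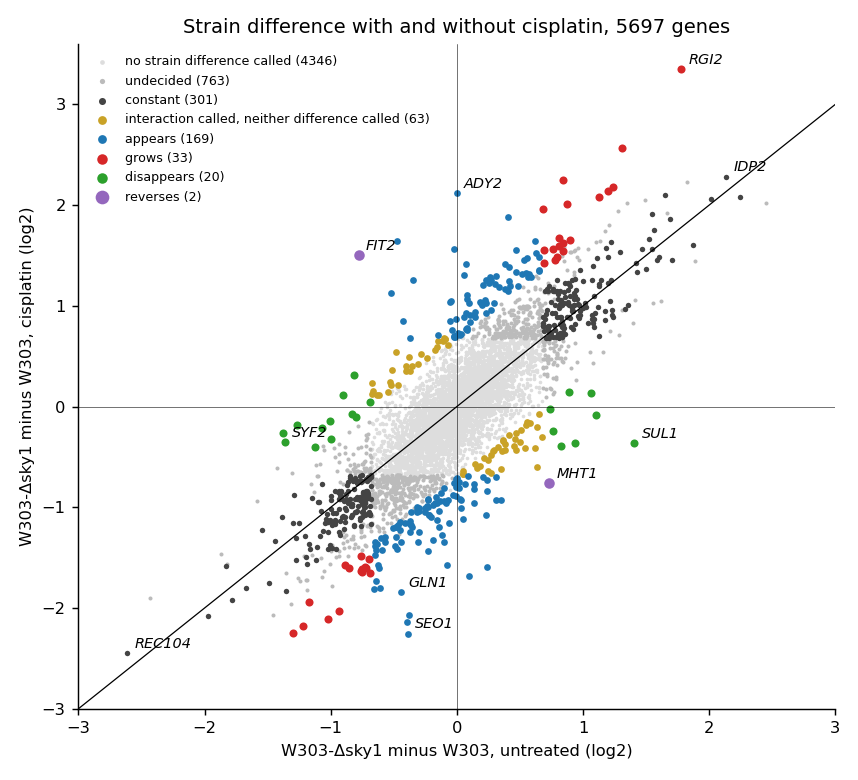
W303-Δsky1 minus W303 difference (log2) of 5697 genes in cisplatin-treated cells (vertical) and in untreated cells (horizontal), coloured by class with the number of genes. Genes on the diagonal have an interaction of 0; SEO1 has an interaction of -1.86 and FIT2 of 2.28.

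Of the 10 lowest interactions 6 belonged to genes of sulfur metabolism. Of the 48 genes in the 6 sulfur lists, 23 were called lower and 0 higher, against 2.76% lower among all genes, and the median interaction was -0.65, against -0.02 over all genes. The median strain difference of these genes was -0.82 with cisplatin and -0.13 without it. In W303 itself the same genes had a median response to cisplatin (treated minus untreated) of 1.1 on the log2 scale. Over all genes 90 were called higher (1.58%) and 87 lower (1.53%) in that response, 3.11% together. The response comes from the same W303 arrays as the interaction and is given only as a value beside it.

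The first steps of the route, uptake and activation of sulfate, were lower in all 6 genes. Sulfate enters through the permeases Sul1 and Sul2, and is activated by ATP sulfurylase (MET3) and adenylylsulfate kinase (MET14). MET3 gave 6.74, 6.76 and 6.76 in cisplatin-treated W303-Δsky1 and 8.38, 8.26 and 8.41 in cisplatin-treated W303, against 4.87, 4.89 and 5.12 in untreated W303-Δsky1 and 4.85, 4.69 and 4.63 in untreated W303. The strains did not overlap with cisplatin and differed little without it, and the interaction was -1.83 ± 0.11 (SE, adjusted p = 1.68e-06), a 3.56-fold effect. MET14 gave 7.96, 8.07 and 7.95 in cisplatin-treated W303-Δsky1 and 9.23, 9.55 and 9.49 in cisplatin-treated W303, against 5.55, 6.04 and 5.82 in untreated W303-Δsky1 and 5.81, 6.16 and 6.12 in untreated W303, for an interaction of -1.21 ± 0.18. MET16, which encodes the phosphoadenylylsulfate reductase that makes sulfite, had 6.33, 6.57 and 6.40 in cisplatin-treated W303-Δsky1 and 8.08, 8.10 and 8.15 in cisplatin-treated W303, against 5.24, 5.53 and 5.30 in untreated W303-Δsky1 and 5.29, 5.20 and 5.29 in untreated W303. Its strain difference was -1.68 with cisplatin and 0.10 without, and the interaction -1.78 ± 0.12 (SE, adjusted p = 1.68e-06). MET22, whose phosphatase removes the adenosine bisphosphate left by this step, had 7.36, 7.34 and 7.26 in cisplatin-treated W303-Δsky1 and 8.24, 8.25 and 8.25 in cisplatin-treated W303, against 7.26, 7.45 and 7.35 in untreated W303-Δsky1 and 7.13, 7.04 and 6.97 in untreated W303, so that W303-Δsky1 was lower with the drug and slightly higher without it. SUL2 differed by -1.20 between the treated and by -0.14 between the untreated strains, with an interaction of -1.06 ± 0.09.

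SUL1 reached a similar interaction, -1.77 ± 0.17 (SE, adjusted p = 3.10e-05), in another way. It had 7.66, 7.63 and 7.75 in cisplatin-treated W303-Δsky1 and 8.15, 7.98 and 8.00 in cisplatin-treated W303, against 5.76, 5.93 and 5.91 in untreated W303-Δsky1 and 4.79, 4.38 and 4.21 in untreated W303. The untreated W303-Δsky1 arrays all lay above those of untreated W303, by 1.41 on average, and the treated ones lay slightly below treated W303 (-0.36). SUL1 therefore belongs to the genes whose strain difference disappeared, and SUL2 to those where it appeared.

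Sulfite reductase, an enzyme with siroheme as cofactor, takes the next step. The genes for siroheme synthesis, MET8 and MET1, were lower. MET8 gave 5.70, 5.71 and 5.61 in cisplatin-treated W303-Δsky1 and 7.89, 7.75 and 7.79 in cisplatin-treated W303, against 4.08, 4.38 and 4.15 in untreated W303-Δsky1 and 4.58, 4.75 and 4.48 in untreated W303, and its interaction was -1.74 ± 0.12 (SE, adjusted p = 3.19e-06). For MET1 the strain difference was -1.34 with cisplatin and -0.10 without, and the interaction -1.24 ± 0.09. Of the reductase subunits, MET5 was called lower (-0.90 ± 0.11), while MET10, at -0.42 ± 0.08 (SE, adjusted p = 0.00178), did not reach 1.6-fold.

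Among 9 genes of homocysteine synthesis and transsulfuration, 5 were lower. STR3, the cystathionine beta-lyase, gave 7.59, 7.40 and 7.41 in cisplatin-treated W303-Δsky1 and 8.83, 8.68 and 8.72 in cisplatin-treated W303, against 4.56, 4.95 and 4.82 in untreated W303-Δsky1 and 4.81, 5.01 and 4.85 in untreated W303, with an interaction of -1.16 ± 0.14. HOM3, the aspartate kinase at the start of the carbon chain, had an interaction of -0.96 ± 0.10, and MET17, which joins sulfide to O-acetylhomoserine, of -0.89 ± 0.08. CYS4 and CYS3, which convert homocysteine to cysteine through cystathionine, were just past the threshold (-0.71 and -0.71). The call of CYS4 was lost without W303 untreated replicate 2 (-0.65) or W303-Δsky1 cisplatin replicate 2 (-0.67), and that of CYS3 without W303 untreated replicate 2 (-0.67) or W303-Δsky1 cisplatin replicate 3 (-0.67) and under joint quantile normalization of the 12 arrays (-0.67). MET2, whose product makes O-acetylhomoserine, behaved differently. Its strain difference was -0.94 with cisplatin and -1.09 without, a constant difference with an interaction of 0.15 ± 0.22.

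In the methionine and AdoMet cycle 3 of 12 genes were lower. MHT1, which makes methionine from S-methylmethionine and homocysteine, reversed. It gave 6.01, 5.87 and 5.80 in cisplatin-treated W303-Δsky1 and 6.81, 6.54 and 6.61 in cisplatin-treated W303, against 5.29, 5.19 and 5.17 in untreated W303-Δsky1 and 4.43, 4.47 and 4.56 in untreated W303. W303-Δsky1 was below W303 on all treated arrays and above it on all untreated arrays, and the interaction was -1.49 ± 0.11 (SE, adjusted p = 4.16e-06). ADI1, of methionine salvage, had an interaction of -1.04 ± 0.12. SAH1, the adenosylhomocysteine hydrolase, had -0.71 ± 0.11, and its call was lost without W303 untreated replicate 2 (-0.64), W303-Δsky1 untreated replicate 1 (-0.67) or W303-Δsky1 cisplatin replicate 2 (-0.67) and under joint quantile normalization of the 12 arrays (-0.64). The AdoMet synthetase genes SAM1 and SAM2 had -0.52 and -0.52, below the fold limit, and MET6, the methionine synthase, 0.07.

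Transporters of organic sulfur compounds formed the other part of the group, with 6 of 11 genes lower and 0 higher. SEO1, of the allantoate permease family, had the lowest interaction of all genes, -1.86 ± 0.14 (SE, adjusted p = 4.16e-06). It gave 6.12, 5.88 and 5.99 in cisplatin-treated W303-Δsky1 and 8.30, 8.26 and 8.20 in cisplatin-treated W303, against 2.58, 2.98 and 2.68 in untreated W303-Δsky1 and 3.24, 3.07 and 3.09 in untreated W303. The strains did not overlap in either condition, and their difference was -2.25 with cisplatin and -0.39 without. In W303 the response of SEO1 to cisplatin was 4.83, and the sum of this response and the interaction, which stands for the same change in W303-Δsky1, was 2.97. MMP1, the S-methylmethionine permease and the neighbour of MHT1 on the chromosome, had an interaction of -1.09 ± 0.12, and MUP3, a low-affinity methionine permease, of -0.86 ± 0.07. The glutathione and oligopeptide transporter gene OPT1 had -1.02 ± 0.12, with strain differences of -0.41 and 0.62 of which neither was called. VHT1, the biotin transporter, was lower in W303-Δsky1 in both conditions (-1.48 with cisplatin, -0.76 without) and so grew. Its call was lost without W303-Δsky1 untreated replicate 1 (-0.67), W303 cisplatin replicate 1 (-0.66) or W303-Δsky1 cisplatin replicate 2 (-0.64). AGP3, an amino acid permease, lost its call (-0.69) without W303 untreated replicate 2 (-0.66), W303 untreated replicate 3 (-0.62), W303-Δsky1 untreated replicate 3 (-0.55), W303 cisplatin replicate 1 (-0.59), W303-Δsky1 cisplatin replicate 2 (-0.64) or W303-Δsky1 cisplatin replicate 3 (-0.67) and with the arrays shifted to 1 median (-0.67).

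By limma 0 of the 6 regulators were called, with 1 adjusted p under 0.05, and 1 was called lower without W303 untreated replicate 2. MET32 had -0.64, with strain differences of -1.11 with cisplatin and -0.47 without, and MET4, the activator, 0.03. MET30, the F-box protein that restrains Met4, had 0.08. For most of the route the sum of W303 response and interaction stayed above 0, for instance 1.86 for MET3, 2.20 for MET14, 2.07 for SUL2 and 2.76 for STR3, against W303 responses of 3.69, 3.40, 3.13 and 3.92. For MET22 it was -0.11, against 1.13 in W303, for HOM3 -0.41, against 0.55, and for SAH1 -0.58, against 0.13. Leaving out each array in turn gave 19 to 24 lower calls and 0 higher among the 48 genes, and 21 without W303 untreated replicate 2.

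**Figure D2:**
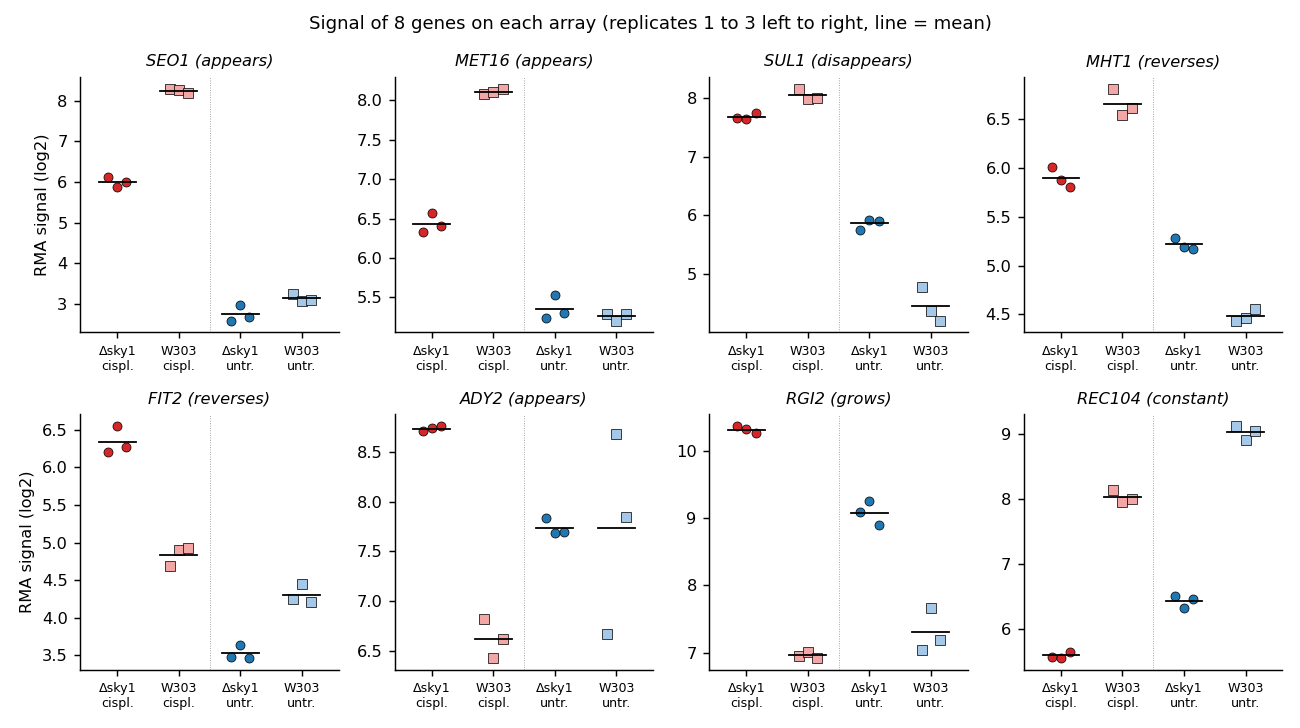
RMA log2 signal of 8 genes on each of the 12 arrays, with treated W303-Δsky1, treated W303, untreated W303-Δsky1 and untreated W303 from left to right and a line at each mean. Treated and untreated groups come from separate normalization runs, so the strains are compared within each pair; ADY2 shows the wide spread of untreated W303 (6.67 to 8.69).

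**Figure D3:**
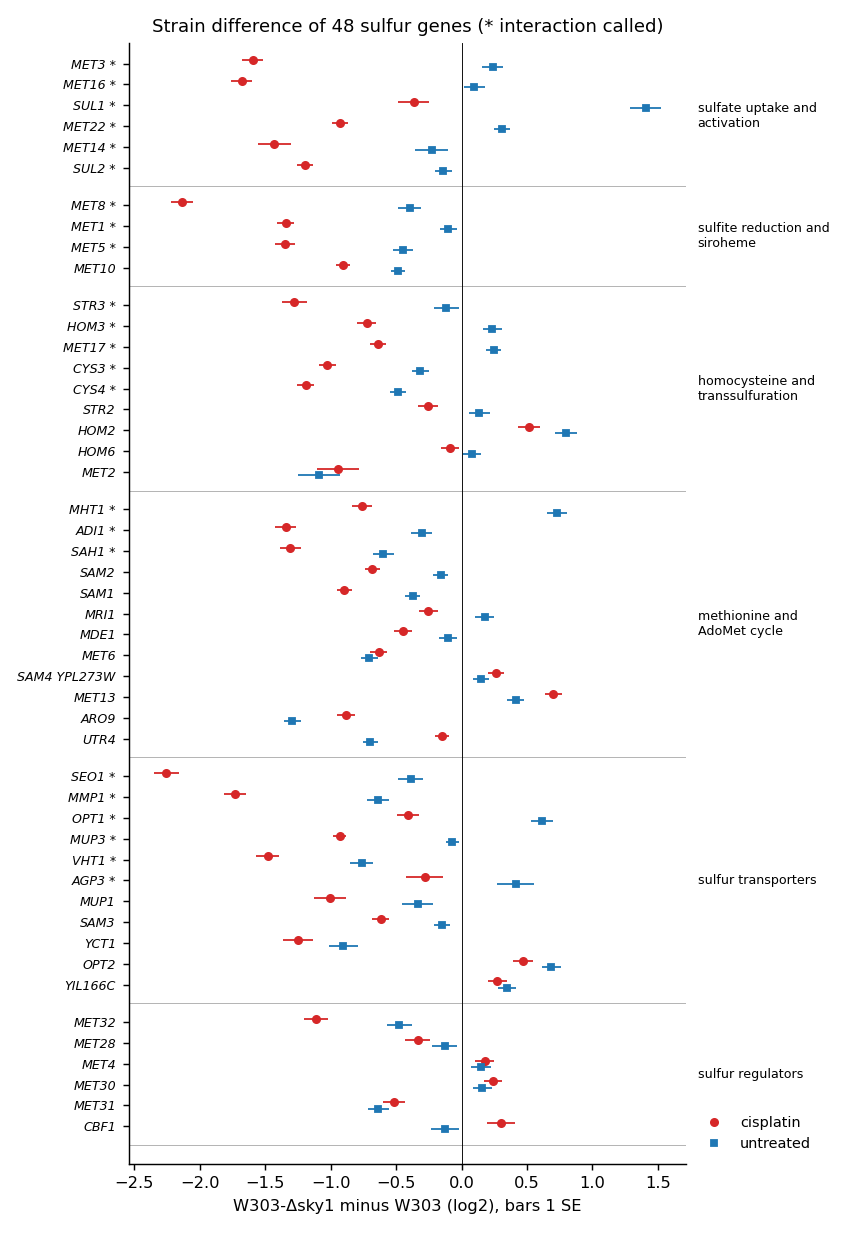
W303-Δsky1 minus W303 difference (log2, bars 1 SE) of the 48 sulfur genes by step, with cisplatin (circles) and without it (squares); an asterisk marks a called interaction. The treated values of the 6 uptake and activation genes lie left of the untreated ones, with interactions from -1.83 for MET3 to -1.06 for SUL2, while 0 of the 6 regulators are marked.

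Other genes tied to sulfur, redox or amino acid metabolism were lower as well. GRX8, a glutaredoxin, had 4.05, 4.25 and 4.15 in cisplatin-treated W303-Δsky1 and 5.54, 5.77 and 5.85 in cisplatin-treated W303, against 2.81, 2.65 and 2.81 in untreated W303-Δsky1 and 2.81, 3.02 and 2.67 in untreated W303. Its untreated values did not separate the strains, and its interaction was -1.5 ± 0.14 (SE, adjusted p = 3.82e-05). MXR1, the methionine sulfoxide reductase, had an interaction of -1.27 ± 0.09, the 1 called gene in a list of 17 of glutathione and thioredoxin metabolism. That list does not hold GRX8, nor the glutathione transferase gene ECM4, which was listed with the DNA damage response and called higher (0.77). SER33, which starts serine synthesis, had -1.16 ± 0.07 and FOL1, of folate synthesis, -0.86 ± 0.09, both among 14 genes of one-carbon metabolism. BNA3, a kynurenine aminotransferase, had -1.13 ± 0.07. YOR385W, a gene without an assigned function, had 7.94, 8.08 and 7.93 in cisplatin-treated W303-Δsky1 and 9.02, 9.04 and 9.12 in cisplatin-treated W303, against 8.09, 8.37 and 8.17 in untreated W303-Δsky1 and 8.15, 7.77 and 8.01 in untreated W303, for -1.30 ± 0.14 (SE, adjusted p = 5.53e-05). Of 37 genes under general amino acid control 2 were lower and 0 higher, against 2.76% and 2.28% among all genes. Their median was -0.31. Of 13 purine synthesis genes 0 were called by limma, with 2 adjusted p under 0.05.

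PHO89, the sodium-dependent phosphate transporter, had 5.74, 5.74 and 5.84 in cisplatin-treated W303-Δsky1 and 7.93, 7.75 and 7.83 in cisplatin-treated W303, against 6.51, 6.53 and 6.61 in untreated W303-Δsky1 and 7.09, 6.85 and 6.85 in untreated W303. All W303-Δsky1 arrays were below those of W303 in both conditions, the strain difference being -2.07 with cisplatin and -0.38 without, and the interaction was -1.69 ± 0.10 (SE, adjusted p = 1.68e-06). PHO84, the high-affinity phosphate transporter, had an interaction of -0.84 ± 0.15, and GIT1, the glycerophosphoinositol permease, of -0.93 ± 0.17. With GIT1 the strain difference was 0.13 in treated and 1.06 in untreated cells and so disappeared. These 3 were the calls among 19 genes of the phosphate regulon, against 2.76% called lower among all genes. The acid phosphatase gene PHO5 was constant, with strain differences of -1.11 with cisplatin and -1.04 without, and PHO11 /// PHO12, which share 1 probe set, had -2.08 and -1.98 in the same order.

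Of 32 genes of glutamate and nitrogen metabolism 4 were lower and 3 higher, against 2.76% and 2.28% among all genes. GLN1, the glutamine synthetase, gave 7.64, 7.51 and 7.60 in cisplatin-treated W303-Δsky1 and 9.47, 9.39 and 9.42 in cisplatin-treated W303, against 9.32, 9.42 and 9.31 in untreated W303-Δsky1 and 9.89, 9.69 and 9.80 in untreated W303, so that the strains were far apart with cisplatin and closer without it. Its interaction was -1.40 ± 0.09 (SE, adjusted p = 1.68e-06). MEP2, the high-affinity ammonium permease, grew (-1.65 with cisplatin, -0.69 without, interaction -0.96 ± 0.11), and UGA4, the GABA permease, had -1.01 ± 0.21. PUT1, the proline oxidase, had -0.79 ± 0.19, and its call was lost without W303 untreated replicate 2 (-0.59). In the other direction went PUT4, the proline permease (0.94 ± 0.18), DUR3, the urea and polyamine transporter (1.02 ± 0.18), and IDP3, the peroxisomal isocitrate dehydrogenase (0.80 ± 0.09). PUT4 was higher in W303-Δsky1 by 2.14 with cisplatin and by 1.20 without.

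Ribosome synthesis genes gave calls in the lower direction only. Over 97 genes of the small subunit processome, large subunit assembly and RNA polymerase I, the median strain difference was -0.89 with cisplatin and -0.58 without. The median interaction was -0.33, with 11 genes called lower and 0 higher, against 2.76% and 2.28% among all genes. Of those called 5 grew and 5 appeared, and 25 genes of the lists were constant. DBP2, an RNA helicase, had the lowest interaction of them, -1.19 ± 0.17 (SE, adjusted p = 4.44e-04). It gave 3.62, 3.76 and 3.15 in cisplatin-treated W303-Δsky1 and 5.41, 5.23 and 5.29 in cisplatin-treated W303, against 5.85, 5.80 and 5.89 in untreated W303-Δsky1 and 6.51, 6.35 and 6.50 in untreated W303. BFR2, of the small subunit processome, had strain differences of -1.94 with cisplatin and -1.17 without, and RPA49, a subunit of RNA polymerase I, -1.61 and -0.75 in the same conditions. MRT4 and SSF1, both of large subunit assembly, had -0.88 ± 0.10 and -0.82 ± 0.15. NSR1, the nucleolin homologue, differed from these, with -0.70 in treated and 0.21 in untreated cells. The number of calls was 9 to 13 with each array left out in turn. By contrast, 1 of 144 cytosolic ribosomal protein genes was called, RPS14B at 0.80, and 0 of 55 mitochondrial ones, of which 12 had an adjusted p under 0.05 by limma.

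The highest interaction belonged to FIT2, a cell wall mannoprotein that retains iron bound to siderophores. FIT2 gave 6.2, 6.55 and 6.28 in cisplatin-treated W303-Δsky1 and 4.68, 4.91 and 4.93 in cisplatin-treated W303, against 3.47, 3.64 and 3.46 in untreated W303-Δsky1 and 4.25, 4.45 and 4.21 in untreated W303. W303-Δsky1 was above W303 on all treated arrays and below it on all untreated ones, with differences of 1.5 and -0.78, and the interaction was 2.28 ± 0.14 (SE, adjusted p = 1.68e-06). Of 28 iron regulon genes, 7 were higher and 1 lower, against 2.28% and 2.76% among all genes, with a median interaction of 0.18. FIT1, of the same mannoprotein family, was higher in W303-Δsky1 in both conditions and grew (2.18 with cisplatin, 1.24 without). FET3, the multicopper oxidase of high-affinity iron uptake, had 7.50, 7.23 and 7.27 in cisplatin-treated W303-Δsky1 and 5.96, 5.94 and 5.87 in cisplatin-treated W303, against 5.83, 5.92 and 5.81 in untreated W303-Δsky1 and 5.55, 5.45 and 5.43 in untreated W303. Its interaction was 1.03 ± 0.10 (SE, adjusted p = 4.82e-05), while its partner permease gene FTR1 had 0.50 and was not called. The siderophore transporter genes SIT1 and ARN2 had 0.99 ± 0.16 and 0.77 ± 0.11. ARN1, of the same transporter family, lost its call (0.70) without W303 untreated replicate 3 (0.66), W303-Δsky1 untreated replicate 2 (0.66), W303 cisplatin replicate 3 (0.67) or W303-Δsky1 cisplatin replicate 1 (0.64), and SMF3, of vacuolar iron export, its call (0.73) without W303-Δsky1 untreated replicate 2 (0.678), just under the limit. HMX1, the heme oxygenase, was the gene called lower (-0.88 ± 0.21). AFT1 and AFT2, which activate these genes, were at -0.02 and -0.07. With each array left out in turn 5 to 7 genes were called higher.

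Genes of fatty acid oxidation were higher in 7 of 18 cases and lower in 0, against 2.28% and 2.76% among all genes. Their median was 0.47. POT1, the peroxisomal thiolase, gave 9.79, 9.63 and 9.63 in cisplatin-treated W303-Δsky1 and 8.11, 7.98 and 7.93 in cisplatin-treated W303, against 8.72, 8.61 and 8.73 in untreated W303-Δsky1 and 7.94, 7.83 and 7.86 in untreated W303. The strains were apart in both conditions and the interaction was 0.86 ± 0.10 (SE, adjusted p = 8.64e-05). For ECI1, an enoyl-CoA isomerase, the strain difference was called with cisplatin (0.93) and not without it (0.07). ECI1 gave 7.24, 7.19 and 7.15 in cisplatin-treated W303-Δsky1 and 6.31, 6.2 and 6.28 in cisplatin-treated W303, against 6.34, 6.32 and 6.36 in untreated W303-Δsky1 and 6.26, 6.30 and 6.24 in untreated W303. Its interaction was 0.86 ± 0.07. PXA1, a subunit of the peroxisomal fatty acid transporter, had 0.92 ± 0.15, FAA2, an acyl-CoA synthetase, 0.86 ± 0.12, and DCI1, of the same family as ECI1, 0.81 ± 0.13. CTA1, the peroxisomal catalase, had 0.73 ± 0.09, and its call was lost with array weights (0.63). CAT2, the carnitine acetyltransferase, had 0.71 ± 0.15, and its call was lost without W303 untreated replicate 1 (0.62), W303-Δsky1 untreated replicate 2 (0.65), W303 cisplatin replicate 2 (0.67) or W303-Δsky1 cisplatin replicate 1 (0.67). POX1 and FOX2, the oxidase and the multifunctional enzyme of the same cycle, had 0.66 and 0.63 and lay under the limit. YAT1, another carnitine acetyltransferase, was constant, with strain differences of 1.36 with cisplatin and 1.5 without.

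Trehalose and glycogen genes all had interactions above 0, and 15 of 19 had an adjusted p under 0.05, against 27.6% of all genes. Only 4 of the list reached the fold limit, against 2.28% called higher among all genes. PIG2, a regulatory subunit for glycogen synthase dephosphorylation, had 1.02 ± 0.10 (SE, adjusted p = 4.82e-05), and the glycogenin gene GLG1 0.86 ± 0.12. The trehalases ATH1 and NTH2 had 0.83 ± 0.11 and 0.78 ± 0.08. GLG1 shows the pattern, with 7.23, 7.08 and 7.33 in cisplatin-treated W303-Δsky1 and 6.63, 6.38 and 6.49 in cisplatin-treated W303, against 6.42, 6.26 and 6.35 in untreated W303-Δsky1 and 6.48, 6.40 and 6.58 in untreated W303. The median of the list was 0.36, and GAC1, a further glycogen regulator, was constant, with strain differences of -1.23 with cisplatin and -1.54 without. The list gave 4 higher calls with any single array left out.

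Of 23 reporters of environmental stress 4 were higher and 0 lower, against 2.28% and 2.76% among all genes. RGI2, a gene of respiratory growth, had the largest strain difference among the genes that grew. It gave 10.37, 10.32 and 10.26 in cisplatin-treated W303-Δsky1 and 6.96, 7.01 and 6.92 in cisplatin-treated W303, against 9.09, 9.26 and 8.89 in untreated W303-Δsky1 and 7.05, 7.67 and 7.19 in untreated W303, with differences of 3.35 and 1.78 and an interaction of 1.57 ± 0.19 (SE, adjusted p = 1.24e-04). STL1, the glycerol symporter, had 9.33, 9.28 and 9.28 in cisplatin-treated W303-Δsky1 and 6.78, 6.74 and 6.67 in cisplatin-treated W303, against 9.93, 9.83 and 10.06 in untreated W303-Δsky1 and 8.10, 9.14 and 8.64 in untreated W303. W303-Δsky1 was higher by 2.57 with cisplatin and by 1.31 without, and the response of W303 itself to cisplatin was -1.80. CTT1, the cytosolic catalase, had 0.80 ± 0.11, and HOR2 (GPP2), a glycerol phosphatase, lost its call (0.71) without W303 untreated replicate 2 (0.61), W303-Δsky1 untreated replicate 1 (0.678) or W303-Δsky1 cisplatin replicate 1 (0.61) and with array weights (0.63). HSP12 and SOD2, of the same list, were at 0.06 and -0.12.

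**Figure D4:**
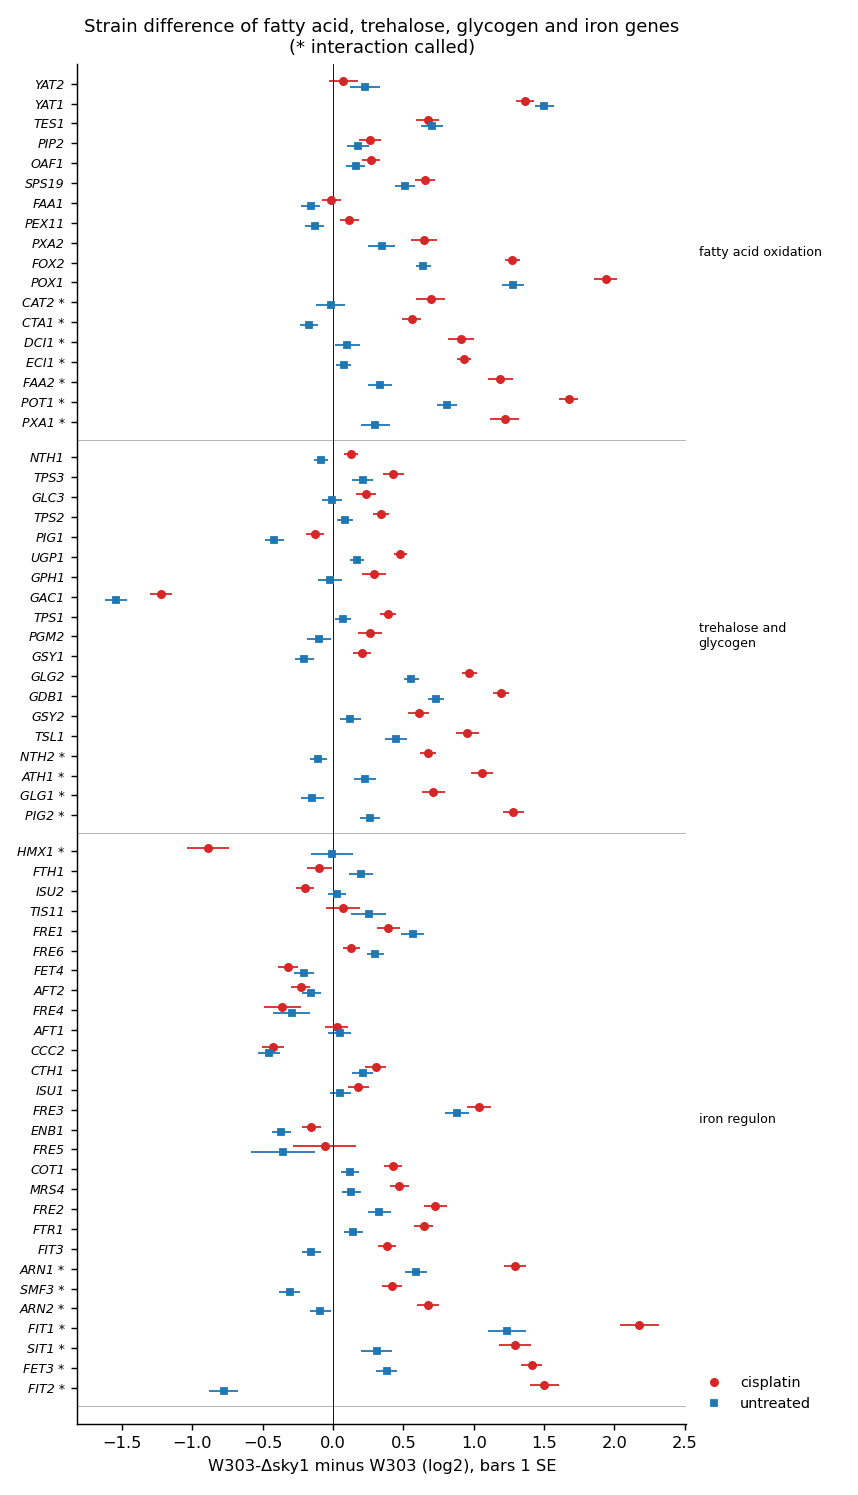
W303-Δsky1 minus W303 difference (log2, bars 1 SE) of 18 fatty acid oxidation, 19 trehalose and glycogen and 28 iron regulon genes, with cisplatin (circles) and without it (squares); an asterisk marks a called interaction. All 19 trehalose and glycogen genes have the treated value to the right of the untreated one, and FIT2 has the 2 values on opposite sides of 0.

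Several of the highest interactions belonged to genes whose untreated W303 arrays were widely spread. ADY2, the acetate transporter, had 8.71, 8.74 and 8.76 in cisplatin-treated W303-Δsky1 and 6.82, 6.43 and 6.61 in cisplatin-treated W303, against 7.83, 7.69 and 7.69 in untreated W303-Δsky1 and 6.67, 8.69 and 7.85 in untreated W303. The treated strains were apart by 2.12 with no overlap, while the 3 untreated W303 values lay on both sides of the W303-Δsky1 ones. Its interaction was 2.12 ± 0.48 (SE, adjusted p = 0.00717), and it was 1.64 without W303 untreated replicate 2 and 2.65 without replicate 1. CSM4 and YIG1, neighbours on the chromosome, had the same shape. CSM4 gave 4.46, 4.60 and 4.39 in cisplatin-treated W303-Δsky1 and 2.78, 2.88 and 2.87 in cisplatin-treated W303, against 3.27, 3.30 and 3.48 in untreated W303-Δsky1 and 2.93, 4.56 and 3.99 in untreated W303. YIG1 gave 8.82, 8.65 and 8.59 in cisplatin-treated W303-Δsky1 and 7.21, 7.00 and 7.17 in cisplatin-treated W303, against 7.47, 7.48 and 7.58 in untreated W303-Δsky1 and 6.82, 8.21 and 7.57 in untreated W303. Their interactions were 2.12 ± 0.40 (SE, adjusted p = 0.00227) and 1.58 ± 0.34 (SE, adjusted p = 0.00497). The fit takes 1 spread per gene for all 4 groups. ADY2 had an SD of 1.01 in untreated W303, but 0.03 in treated W303-Δsky1, 0.20 in treated W303 and 0.08 in untreated W303-Δsky1. An error from the spread of each group apart was not computed, so the SE and adjusted p of ADY2, CSM4 and YIG1 do not allow for this inequality. The same limit holds for other called genes with a wide untreated W303 group. Examples are YHR033W (SD 0.53), STL1 (0.52), YGR066C (0.41), HMX1 (0.40), FIT1 (0.38), PUT1 (0.36) and PUT4 (0.33). YHR033W, of unknown function, had 1.48 ± 0.26, and PLM2, a forkhead protein gene counted with the DNA damage response, 1.34 ± 0.20. Among the 130 genes called higher the untreated W303 group had the largest SD of the 4 groups in 79, and among the 157 called lower in 65. Without W303 untreated replicate 2, 225 of the 287 calls remained, and without replicate 1, 268.

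FMP48 and NDE2, also in the upper ranks, had narrower groups, while YGR066C below, with an SD of 0.41 in untreated W303, did not. FMP48, a mitochondrial protein kinase gene, gave 7.78, 7.68 and 7.69 in cisplatin-treated W303-Δsky1 and 6.41, 6.52 and 6.44 in cisplatin-treated W303, against 7.26, 7.05 and 7.25 in untreated W303-Δsky1 and 7.42, 7.80 and 7.39 in untreated W303. W303-Δsky1 lay above W303 on all treated arrays and below it on all untreated ones, and the interaction was 1.61 ± 0.14 (SE, adjusted p = 1.56e-05). NDE2, the external NADH dehydrogenase, had 7.11, 7.07 and 6.96 in cisplatin-treated W303-Δsky1 and 4.85, 4.83 and 4.72 in cisplatin-treated W303, against 5.98, 5.87 and 5.83 in untreated W303-Δsky1 and 5.11, 5.15 and 4.90 in untreated W303, and its strain difference grew to 2.25 with cisplatin, against 0.84 without it. The interaction of NDE2 was 1.41 ± 0.10 (SE, adjusted p = 4.49e-06). YGR066C (GID10), a substrate receptor of the GID ubiquitin ligase, had 1.65 ± 0.23, with 7.00, 7.12 and 6.92 in cisplatin-treated W303-Δsky1 and 5.92, 6.04 and 5.70 in cisplatin-treated W303, against 5.89, 5.88 and 5.64 in untreated W303-Δsky1 and 6.09, 6.79 and 6.08 in untreated W303. PNS1, a choline transporter-like gene, grew as well (1.96 with cisplatin, 0.69 without). BNA4, the kynurenine 3-monooxygenase of NAD synthesis, had 0.92 ± 0.09, opposite to BNA3. MAL31, a maltose permease, had 0.88 ± 0.10, 1 of 2 calls among 10 genes of maltose use. Among 17 genes of the glyoxylate cycle and gluconeogenesis the calls were ADY2 and ADH2 (0.97 ± 0.13), the glucose-repressed alcohol dehydrogenase.

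Strain differences that disappeared were called only in untreated cells. The fold limit decides this class too, since a treated difference under it counts as not called. With cisplatin SUL1, YPS3, SVS1 and SYF2 still had strains that did not overlap, W303-Δsky1 being lower (-0.36, -0.36, -0.39 and -0.36). Without a fold limit 221 genes disappeared, 103 reversed and 87 shrank. In 8 of these 20 genes W303-Δsky1 was higher without cisplatin and in 12 it was lower. SUL1 led the first set. YPS3, an aspartic protease of the cell surface, had 7.62, 7.58 and 7.37 in cisplatin-treated W303-Δsky1 and 8.01, 7.85 and 7.81 in cisplatin-treated W303, against 8.02, 8.00 and 7.88 in untreated W303-Δsky1 and 7.14, 6.98 and 6.98 in untreated W303, and its interaction was -1.30 ± 0.11 (SE, adjusted p = 1.73e-05). SVS1, a cell wall protein gene, had differences of -0.39 with cisplatin and 0.83 without, and the shared probe set of IMD1 and IMD2, for IMP dehydrogenase, -0.09 and 1.1. In the second set SYF2, a spliceosome component, had 5.32, 5.26 and 5.30 in cisplatin-treated W303-Δsky1 and 5.75, 5.56 and 5.64 in cisplatin-treated W303, against 5.04, 5.03 and 4.74 in untreated W303-Δsky1 and 6.01, 6.59 and 6.30 in untreated W303. Its strain difference was -0.36 with cisplatin and -1.36 without, and its interaction was 1.01 ± 0.17. The protein kinase gene RCK1 had differences of -0.27 with cisplatin and -1.37 without, and CIN5, a transcription factor of the Yap family, -0.22 and -1.07. The choice of RCK1 and CIN5 as examples followed a look at their values. Without W303 untreated replicate 1 this class held 33 genes. In all 63 genes with neither difference called, the strain differences had opposite signs. The calling rule forces this wherever both differences lie under the fold limit. With the same sign they could not differ by as much as the limit, so the signs are no separate observation. Examples are BDH2 (0.54 with cisplatin, -0.48 without, interaction 1.02 ± 0.10) and YLR194C, also named NCW2 (-0.59, 0.64 and -1.23 ± 0.10 in the same order).

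Some constant strain differences were large. REC104, of meiotic recombination, had 5.57, 5.54 and 5.65 in cisplatin-treated W303-Δsky1 and 8.14, 7.96 and 8.00 in cisplatin-treated W303, against 6.50, 6.31 and 6.46 in untreated W303-Δsky1 and 9.13, 8.92 and 9.05 in untreated W303. The strain difference was -2.45 with cisplatin and -2.61 without, and the 95% interval of the interaction was -0.07 to 0.39. IDP2, the cytosolic isocitrate dehydrogenase, gave 8.88, 8.93 and 8.97 in cisplatin-treated W303-Δsky1 and 6.68, 6.58 and 6.66 in cisplatin-treated W303, against 8.73, 8.58 and 8.70 in untreated W303-Δsky1 and 6.66, 6.42 and 6.52 in untreated W303, higher in W303-Δsky1 by 2.28 and 2.13 in treated and untreated cells, with an interval of -0.06 to 0.36. FBP1, the fructose bisphosphatase of gluconeogenesis, was higher by 2.08 with cisplatin and 2.25 without, with an interval of -0.51 to 0.17. PCK1, of the same pathway, was constant too, at 1.6 with cisplatin and 1.87 without. The signal of snR73 and YMR013W-A, which the array cannot tell apart, was higher by 2.06 with cisplatin and 2.01 without. Among the negative ones were MFA2, a mating pheromone gene (-1.80 with cisplatin, -1.67 without), and NOP56, a nucleolar protein of ribosome synthesis (-1.75 and -1.49 in that order). The choice of PCK1, MFA2 and NOP56 likewise followed a look at their values. IME1, the inducer of meiosis, was not constant like REC104 but grew, with 3.13, 3.44 and 3.05 in cisplatin-treated W303-Δsky1 and 5.38, 5.30 and 5.28 in cisplatin-treated W303, against 3.40, 3.37 and 3.37 in untreated W303-Δsky1 and 4.69, 4.24 and 4.29 in untreated W303 and an interaction of -1.09 ± 0.16.

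Many lists held no or few calls. By limma 0 of 38 repair genes taken by name were called (7 with an adjusted p under 0.05), 0 of 36 proteasome genes (2), 0 of 29 heat shock chaperone genes (5), 0 of 22 cyclin genes (3) and 0 of 15 genes of the TCA cycle (2). Without W303 untreated replicate 2, 2 cyclin genes were called lower, and without W303 untreated replicate 1, 1 repair gene was called higher. Among 6 genes for SR-like proteins and Sky1 targets 0 were called, with 3 adjusted p under 0.05 and interactions between -0.48 and 0.29. Of 54 spliceosome genes LUC7, of the U1 snRNP, was lower (-0.78 ± 0.11) and SYF2 higher. In 26 genes of the DNA damage response the calls were PLM2 and ECM4, a glutathione transferase (0.77 ± 0.08), and single arrays left out gave 2 to 4 higher calls. In the plot of interactions by list, 5 of the 6 sulfur sets and the 3 ribosome synthesis sets have medians between -1.5 and -0.29, the trehalose and fatty acid sets have medians of 0.36 and 0.47, and the median of the sulfur regulators is 0.05.

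**Figure D5:**
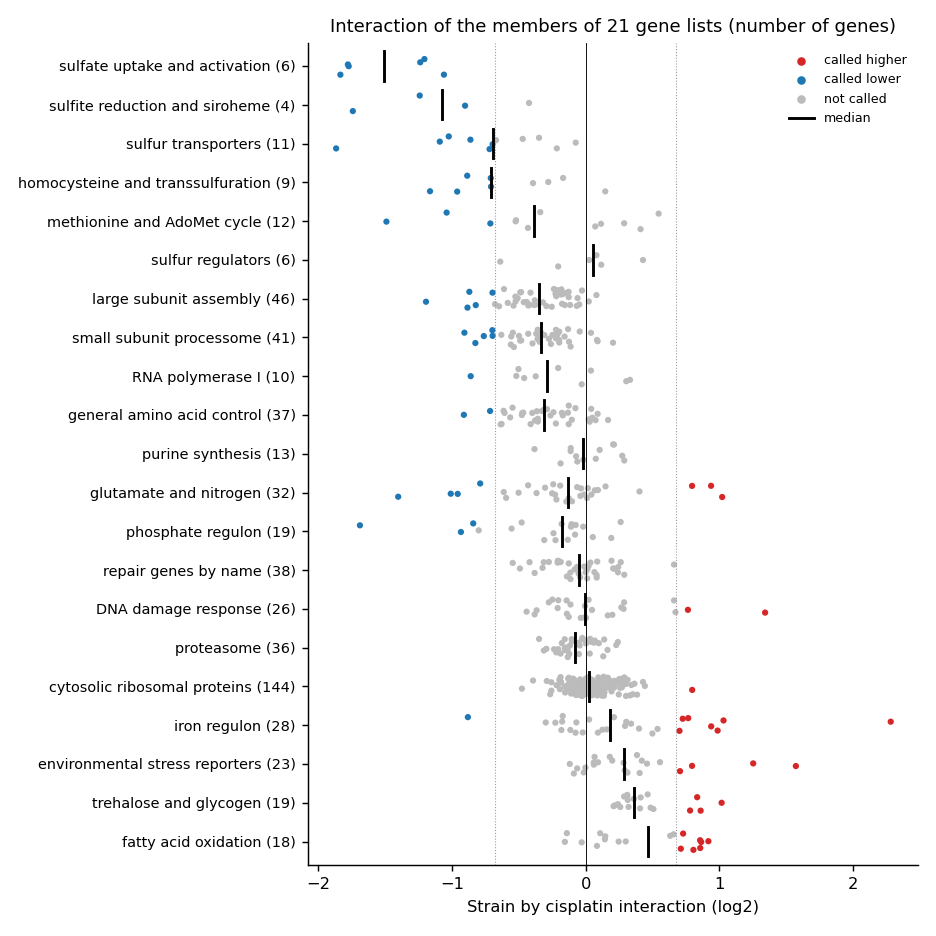
Strain by cisplatin interaction (log2) of the members of 21 gene lists, with the number of genes in parentheses, a bar at each median and dotted lines at 1.6-fold. Members called lower are blue and those called higher red; medians run from -1.5 for sulfate uptake and activation to 0.47 for fatty acid oxidation.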

How the data were processed

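RNA from 3 biological replicates of each strain and condition was hybridised to Affymetrix Yeast Genome 2.0 arrays. The authors normalized the arrays with RMA in 3 separate runs of 6 arrays and deposited log2 signals, which per the labels were then tested with limma. An offset common to 1 run cancels in the interaction, which was built from the run of untreated arrays and the run of treated arrays. A difference between runs that varies with signal does not cancel. Run and treatment coincide, so an effect of the run cannot be told apart from one of cisplatin. Of the called interactions 45.3% were higher as deposited and 52.7% after joint quantile normalization. Levels were not tested across runs. The response of W303 comes from the run that held its treated and untreated arrays together. Deposited means, p-values and false discovery rates were not used.

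For genes with several probe sets 1 was kept. A fit of 4 group means to 12 arrays was made with limma 3.58.1 in R 4.3.3, and p-values were adjusted over all 5698 genes. On simulated data with 200 changed genes of 5698, 94.2%, 96.8% and 100% of changes of 1, 1.5 and 2 (log2) were recovered, with 1 false call. The simulated noise was independent between arrays and equal in all 4 groups. In the data untreated W303 spread more and same-numbered arrays went together. Changes smaller than 1 were not simulated, so the result does not cover calls near the fold limit. With 3 arrays a group, the number of arrays limits the precision. Same-numbered arrays deviated together from their group means (r 0.164 to 0.479 across runs and 0.223 to 0.442 within a run, against -0.384 to 0.167 for different numbers). The division of cultures pairs only treated and untreated arrays of 1 strain. Same-numbered arrays within a run are of different strains and share no culture, and why they went together was not tested. The main fit did not use the numbers, and fits with them as blocks are given below.

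Members and gene lists were chosen with earlier results of these data known. The genes named with full values are the 10 highest and 10 lowest called interactions of 1 sign in all replicate sets, the 4 largest of each class, and called list members. Members of lists named without a call were chosen after their values were seen. List names without a match numbered 5. Alternatives covered scaling, blocks, thresholds, filters, variance models and each array left out. Counts for lists with single arrays left out were added after seeing the data.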

Additional observations from a re-analysis of the deposited data

Results flagged for a closer look

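The effect of the deletion differed between treated and untreated cells, by limma's test of the difference itself, in 130 genes in the higher and 157 in the lower direction. The genes named here are those with the largest such differences, and values in parentheses are the range over the 3 sets of arrays with the same replicate number. No explanation was weighed for any of them.

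On the lower side SEO1 had -1.86 (-2.28 to -1.52), MET3 -1.83 (-2.14 to -1.65), MET16 -1.78 (-1.87 to -1.71) and SUL1 -1.77 (-1.95 to -1.47). MET8 followed with -1.74 (-1.85 to -1.67), PHO89 with -1.69 (-1.75 to -1.62) and GRX8 with -1.5 (-1.85 to -1.16). MHT1 had -1.49 (-1.65 to -1.39), GLN1 -1.40 (-1.61 to -1.27) and YOR385W -1.30 (-1.55 to -1.01). Of these genes 6 belong to the sulfur lists.

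On the higher side FIT2 had 2.28 (2.09 to 2.46), CSM4 2.12 (1.33 to 2.99), ADY2 2.12 (0.72 to 3.31) and YGR066C 1.65 (1.29 to 2.00). FMP48 had 1.61 (1.39 to 1.90), YIG1 1.58 (0.96 to 2.38), RGI2 1.57 (1.37 to 1.71) and YHR033W 1.48 (1.00 to 1.96). NDE2, at 1.41 (1.31 to 1.51), and PLM2, at 1.34 (1.24 to 1.45), completed the ranks. ADY2, CSM4 and YIG1 had the widest ranges, and in each the lowest value came from the arrays numbered 1 and the highest from those numbered 2.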

How the results depend on the processing

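Of the 121 named genes 120 kept their sign under all of 25 alternatives, 12 of which left out 1 array each. The exception was snR73 /// YMR013W-A, a constant gene whose interaction of 0.05 became -0.024 with array weights, -0.025 without W303 untreated replicate 2, -0.003 without W303-Δsky1 untreated replicate 3 and -0.002 without W303-Δsky1 cisplatin replicate 2, with a range of -0.025 to 0.095 over the arrays left out. Of the named genes 93 kept their call under all but the changes of the fold threshold. Without a fold threshold 687 genes were higher and 885 lower, and the classes held 546 (appears), 221 (disappears), 602 (grows), 87 (shrinks), 103 (reverses) and 1822 (constant) genes. With a threshold of 2-fold these numbers were 31 and 35, then 42, 5, 3, 0, 67 genes for appears, disappears, grows, reverses and constant. In both settings the interval of the interaction of a constant gene was still held to 1.6-fold. Joint quantile normalization gave 147 higher and 132 lower calls, 257 of the 287 being shared, and 1 shrinking gene, and array weights left 1 reversing gene. Leaving out single arrays gave 112 to 152 higher and 140 to 187 lower calls, 148 to 181 genes that appear, 18 to 33 that disappear (33 without W303 untreated replicate 1), 31 to 38 that grow, 0 to 1 that shrink, 2 to 3 that reverse and 286 to 324 constant ones. A count of 1 shrinking gene was found without W303 untreated replicate 2, W303-Δsky1 untreated replicate 2 or W303-Δsky1 cisplatin replicate 3. The replicate number as a block gave 132 higher and 159 lower calls over the 12 arrays, 130 and 158 within each run, and 132 and 163 with cultures as blocks, and changed no call of a named gene. The cause of these shifts was not tested.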
